A study of Mus musculus with 18 samples.

Results

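The genes described here encode the SR proteins, the Tra2 proteins and the heterogeneous nuclear ribonucleoproteins (hnRNPs), the 2 classical groups of splicing factors that bind pre-mRNA in sequence-specific ways. They were chosen by name: every protein-coding gene of the count table whose symbol starts with Srsf and a number, Hnrnp, Hnrpdl, Hnrpll, Tra2a or Tra2b. This gave 33 of 37310 genes, 13 of them SR or Tra2 genes and 20 hnRNP genes, and all 33 passed the low-count filter that left 15433 genes for testing. RNA was sequenced from cultured cortical neurons of wild-type (WT) mice and of mice lacking Fmr1 (KO), which encodes FMRP, an RNA-binding regulator of translation. On day 7 in culture they received vehicle (DMSO) or JQ1, a small molecule that displaces BET bromodomain proteins from acetylated chromatin, for 24 h. The 2 genotypes and 2 treatments made 4 groups of 3 libraries, and all of them share the culture medium, Neurobasal with B27 supplement. The strain, age of the mice, Fmr1 allele and JQ1 dose are not stated in the labels, and 6 samples treated with THZ1 were not analysed here.

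SR proteins carry RNA recognition motifs and a domain rich in arginine and serine. They bind mostly exonic enhancers and help the spliceosome to define an exon, and kinases of the Srpk and Clk families set their activity by phosphorylation. The hnRNPs coat nascent RNA, often act as silencers of nearby splice sites, and take part in RNA export, transport and translation. Many genes of both groups control their own level: a highly conserved exon or intron, when spliced in a certain way, sends the transcript to nonsense-mediated decay. In neurons these factors share targets with tissue-specific regulators such as the Nova, Rbfox and Ptbp proteins.

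Fmr1 itself lay between 119 and 154 CPM (counts scaled to library size) in the 6 WT libraries and between 21.5 and 34.6 CPM in the 6 KO libraries. Library totals ran from 21643592 to 134110850 gene counts, and the 33 genes held between 0.660% and 0.740% of them. Both KO libraries numbered 3 stood apart: Xist, the RNA of the inactive X chromosome, was at 4.29 and 4.34 CPM there against 231 to 441 CPM in the other 10 libraries, and the Y-linked gene Ddx3y was at 54.6 and 76.2 CPM against 28.1 to 46.1 CPM. Results between the genotypes are therefore given with and without these libraries. The labels number the libraries but do not say whether they come from separate cultures or animals, so each p-value reflects only how far these libraries vary, which may be technical. Neuronal markers summed to between 7660 and 9090 CPM in every library. Astrocyte markers summed to 702 to 832 CPM in WT in DMSO, 492 to 665 CPM in KO in DMSO, 513 to 694 CPM in WT in JQ1 and 326 to 523 CPM in KO in JQ1. All 7 endothelial markers had a group mean under 1 CPM in each group. Log2 changes use scaling to the bulk of genes. In bulk RNA, fewer cells of a type and less RNA per cell cannot be told apart.

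The promoters of 4 members are shown so that genes that moved in opposite directions under JQ1 can be set side by side. RefSeq promoter windows of 300 bases (build GRCm38.p6) were found for 31 of the 33 genes, in 43 windows. The windows had a median GC content of 67.3%, against 52.7% over all 32851 windows, and a median of 28 CpG dinucleotides, against 7. Below are the 150 bases before the annotated start of 3 genes that were higher in JQ1 and of Hnrnpa1, which was lower, written 5′ to 3′ on the gene's strand, with matches to the searched motifs in capitals. Srsf5 lies on the plus strand at chr12:80945349-80945498, Srsf6 on the plus strand at chr2:162931358-162931507, Hnrnpa0 on the minus strand at chr13:58128557-58128706, and Hnrnpa1 on the plus strand at chr15:103240247-103240396.
Srsf5: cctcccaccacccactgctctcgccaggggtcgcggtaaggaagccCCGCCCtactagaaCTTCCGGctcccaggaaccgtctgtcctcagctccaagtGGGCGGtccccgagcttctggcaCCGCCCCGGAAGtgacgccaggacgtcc
Srsf6: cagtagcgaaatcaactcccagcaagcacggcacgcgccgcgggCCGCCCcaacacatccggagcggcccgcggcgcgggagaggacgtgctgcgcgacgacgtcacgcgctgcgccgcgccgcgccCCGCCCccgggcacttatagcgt
Hnrnpa0: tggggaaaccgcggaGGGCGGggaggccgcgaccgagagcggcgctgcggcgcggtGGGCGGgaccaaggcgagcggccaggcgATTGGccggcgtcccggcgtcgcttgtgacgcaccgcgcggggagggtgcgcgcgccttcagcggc
Hnrnpa1: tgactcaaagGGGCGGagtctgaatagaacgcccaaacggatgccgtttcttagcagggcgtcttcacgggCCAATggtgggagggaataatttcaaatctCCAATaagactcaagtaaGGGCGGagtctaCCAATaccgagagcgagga
The GC box GGGCGG was found, on either strand, in 83.7% of the members' windows and in 35.7% of all windows. The ETS motif CCGGAAG was in 23.3% against 8.86%, the CCAAT box CCAAT in 51.2% against 37.4%, and the E-box CACGTG in 11.6% against 7.15%. The TATA box TATAAA was in 9.3% against 13.6%, the CRE motif TGACGTCA in 2.33% against 1.79%, and the YY1 motif AAGATGGC in 2.33% against 2.75%. In Srsf5 a GC box and an ETS motif overlap near the start. Hnrnpa1 holds 3 CCAAT boxes and 2 GC boxes in the stretch shown, while Srsf6 holds 2 GC boxes and none of the other motifs. The comparison windows are those of all genes, tested here or not, while all 33 members passed the low-count filter. No comparison with the windows of tested genes alone was made. These shares count windows and not genes, and the ETS matches come from 6 of the 31 genes. A match is only a match of letters. Hnrpdl is not shown because its stretch lies in an annotated exon, and Hnrnpa2b1, also lower in WT, has no GC box in its windows. Hnrnpc and Hnrnpm, higher in both genotypes, have none either. Hnrnpa1, Hnrpdl and Hnrnph1, lower in both, do have GC boxes in their windows.

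Because lengths differ, levels of different genes were compared as CPM per kilobase of the longest coding transcript (GENCODE M21). In WT neurons in DMSO the highest mean levels per kilobase were those of Hnrnpa2b1 at 459.7, Hnrnpk at 214.5, Hnrnph1 at 147.8, Hnrnpa0 at 126.1 and Hnrnpab at 120.1. The lowest were those of Hnrnph3 at 5.1, Srsf4 at 8.32, Hnrnpr at 8.38 and Srsf12 at 12.7. With the length of all exons joined, Hnrnpa0 came first at 126.1 and Hnrnpa2b1 second at 120.7, so the order at the top depends on which isoform is used. Of the 33 genes, 21 (63.6%) have an annotated transcript subject to nonsense-mediated decay, against 27.3% of 13968 tested protein-coding genes. Counts per gene add productive and decaying transcripts together, so none of the changes below says which isoform moved.

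The comparison of JQ1 with DMSO in WT neurons asks how these genes responded to BET inhibition. Of the 33 genes, 12 (36.4%) were higher and 5 (15.2%) were lower, against 25.9% higher and 29.3% lower among all 15433 genes tested (edgeR's quasi-likelihood test, Benjamini-Hochberg adjusted p under 0.05). With scaling to spike-in RNA, which moved the median of all genes by -0.63 on the log2 scale, all 12 risers had negative values. It called 0 of the 33 genes higher and 7 lower, against 40 higher and 5814 lower of all 15433 genes. With DESeq2 size factors 13 were higher and 3 lower, against 4120 and 4424 of all genes. The median log2 change of the 33 genes was 0.11, against -0.0043 for all genes. The changes were small: 0 of the 33 passed 1.5-fold in either direction, whereas 22.3% of all genes did, and the median size of change was 0.16 against 0.26.

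In KO neurons 14 genes (42.4%) were higher and 4 (12.1%) lower in JQ1, against 27.7% and 29.4% of all genes, with a median log2 change of 0.13 against 0.0014. With spike-in scaling the 18 genes kept their signs. This scaling called 0 of the 33 genes in either direction in KO, against 206 higher and 1314 lower of all genes. It put the members' median at -0.52 in WT and 0.19 in KO. With scaling to the bulk of genes, 11 genes were higher in both genotypes, 3 were lower in both, and 12 were called in neither. The sign was then the same in WT and KO for 32 of the 33 genes. These counts were not made over all genes, so they do not set the 33 genes apart. The 2 sets of changes, which share no library, had a Pearson r of 0.956 and a Spearman rho of 0.966 over the 33 genes and a Pearson r of 0.936 over all genes tested; genes are not independent replicates.

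**Figure D1:**
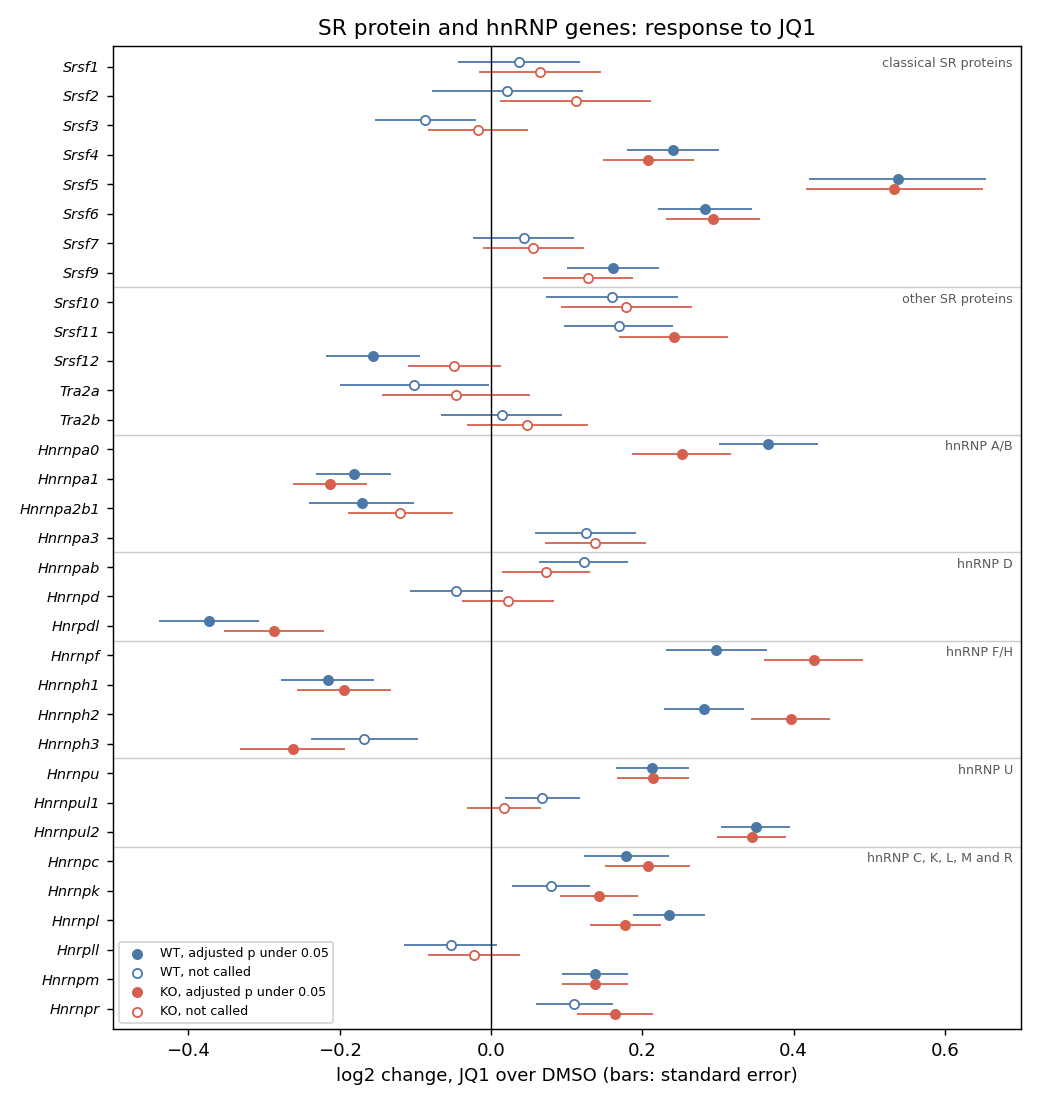
Log2 change in JQ1 over DMSO for the 33 genes, grouped by family, in WT (blue) and KO (red), with standard errors; filled points passed the test. Srsf5 has the largest rise in both genotypes (0.54 in WT and 0.53 in KO) and Hnrpdl the largest fall (-0.37 and -0.29); with spike-in scaling the WT rises become negative.

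Among the classical SR proteins, Srsf4, Srsf5 and Srsf6 were higher in both genotypes, although their WT values turn negative with spike-in scaling. These 3 are relatives with 2 RNA recognition motifs and a long arginine-serine domain. Srsf5 was at 158, 171 and 129 CPM in WT in DMSO and at 219, 235 and 209 CPM in WT in JQ1. In KO it was at 145, 137 and 191 CPM in DMSO and at 232, 208 and 243 CPM in JQ1. The JQ1 libraries lay above every DMSO library in both genotypes. The log2 change was 0.54 in WT (SE 0.12, adjusted p = 0.00142 by edgeR) and 0.53 in KO (SE 0.12, adjusted p = 0.00139 by edgeR). Srsf6 was at 154, 150 and 140 CPM in WT in DMSO and at 177, 180 and 183 CPM in JQ1, and in KO at 131, 134 and 154 CPM against 167, 165 and 181 CPM. The groups did not overlap in either genotype, and the log2 changes were 0.28 in WT (adjusted p = 0.0015 by edgeR) and 0.29 in KO (adjusted p = 0.00103 by edgeR). Srsf4 had log2 changes of 0.24 and 0.21. For Srsf4, 43% of exon bases are also annotated to an antisense gene, and the strand setting of the counting is not given, so its value is uncertain.

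The other classical SR proteins moved less. Srsf9 passed the test in WT (log2 change 0.16) and was at 0.13 in KO, where it did not pass. It lost its call in WT in 5 of 13 alternative analyses, which do not count spike-in scaling. Srsf1, the founding family member, Srsf2, Srsf3 and Srsf7 passed in neither genotype, with log2 changes between -0.09 and 0.11. Among the remaining SR genes, Srsf11 passed in KO (0.24, a call lost in 3 of 13 alternatives) and was at 0.17 in WT, and Srsf10, a splicing repressor when dephosphorylated, had 0.16 and 0.18 without passing. Tra2a and Tra2b, sequence-specific activators related to the SR proteins, lay between -0.10 and 0.05. Srsf12 was the only SR gene called lower. It was at 38.6, 39.5 and 33.97 CPM in WT in DMSO and at 34.8, 33.5 and 32.1 CPM in WT in JQ1, so the groups overlapped. Its log2 change of -0.16 (SE 0.06, adjusted p = 0.0444 by edgeR) kept its call in 4 of 13 alternatives.

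The hnRNP A/B family split, except that with spike-in scaling Hnrnpa0 too was negative in WT. Hnrnpa0, a single-exon gene, was at 351, 324 and 338 CPM in WT in DMSO and at 444, 420 and 441 CPM in WT in JQ1, with no overlap. The log2 change was 0.37 (SE 0.07, adjusted p = 0.000298 by edgeR). In KO it went from 287, 285 and 338 CPM to 337, 368 and 378 CPM, with a log2 change of 0.25 (adjusted p = 0.00451 by edgeR). The highest KO library in DMSO, replicate 3, reached the lowest in JQ1.

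Hnrnpa1, a silencer of many exons and a shuttling RNA export factor, went the other way. In WT it was at 201, 210 and 197 CPM in DMSO and at 178, 190 and 168 CPM in JQ1. In KO it was at 239, 225 and 229 CPM in DMSO and at 196, 203 and 199 CPM in JQ1. The groups did not overlap in either genotype, and the log2 changes were -0.18 in WT (SE 0.05, adjusted p = 0.00629 by edgeR) and -0.21 in KO (adjusted p = 0.00205 by edgeR). Hnrnpa2b1, which binds RNA carried along dendrites, was at 790, 833 and 760 CPM in WT in DMSO and 687, 733 and 697 CPM in JQ1. Its log2 change of -0.17 barely passed in WT (adjusted p = 0.0493 by edgeR), was kept in 5 of 13 alternatives, and was -0.12 in KO, where it did not pass. Hnrnpa3 did not pass in either genotype (0.13 and 0.14).

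In the hnRNP D family Hnrpdl fell and its relatives Hnrnpd and Hnrnpab did not pass. Hnrpdl controls its own transcript through alternative splicing of its untranslated end. It was at 228, 229 and 214 CPM in WT in DMSO and at 166, 180 and 172 CPM in JQ1, and in KO at 205, 193 and 223 CPM against 171, 155 and 184 CPM. Every JQ1 library lay below every DMSO library of its genotype. The log2 changes were -0.37 in WT (SE 0.07, adjusted p = 0.000281 by edgeR) and -0.29 in KO (adjusted p = 0.00199 by edgeR). Hnrnpd, also called AUF1 and a factor in decay of AU-rich mRNA, was at -0.05 and 0.02.

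The hnRNP F/H family, which binds runs of G, split within itself in both genotypes, but with spike-in scaling Hnrnpf and Hnrnph2 too were negative in WT. Hnrnpf was at 37.9, 42.5 and 41.8 CPM in WT in DMSO and at 51.3, 53.4 and 44.8 CPM in JQ1. In KO it was at 39.7, 39.9 and 41.0 CPM against 50.6, 55.6 and 55.9 CPM. The groups did not overlap in either genotype. The log2 changes were 0.30 in WT (adjusted p = 0.00167 by edgeR) and 0.43 in KO (adjusted p = 7.54e-05 by edgeR). Of its exon bases, 26.5% are also annotated to other genes on the opposite strand, which makes the value uncertain.

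X-linked Hnrnph2 moved with Hnrnpf; its libraries are shown, by a choice made after its values were seen, because it ranks next after the 5 largest rises. It was at 117, 123 and 120 CPM in WT in DMSO and at 139, 150 and 148 CPM in JQ1, and in KO at 107, 108 and 113 CPM against 138, 139 and 155 CPM. Again no library of JQ1 reached down to DMSO. The log2 changes were 0.28 in WT (SE 0.05, adjusted p = 0.000435 by edgeR) and 0.40 in KO (adjusted p = 2.06e-05 by edgeR). Hnrnph1, its autosomal counterpart and the more abundant of the pair per kilobase, was at 357, 365 and 355 CPM in WT in DMSO and at 300, 315 and 312 CPM in JQ1, without overlap. In KO it was at 329, 322 and 366 CPM against 276, 288 and 325 CPM, where the groups overlapped. The log2 changes were -0.22 in WT (SE 0.06, adjusted p = 0.00858 by edgeR) and -0.19 in KO (adjusted p = 0.015 by edgeR). Its KO call was lost in 3 of 13 alternatives and its WT call in 1, without WT in JQ1 replicate 1. Hnrnph3 was at -0.17 in WT, where it did not pass, and fell by 0.26 on the log2 scale in KO.

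**Figure D2:**
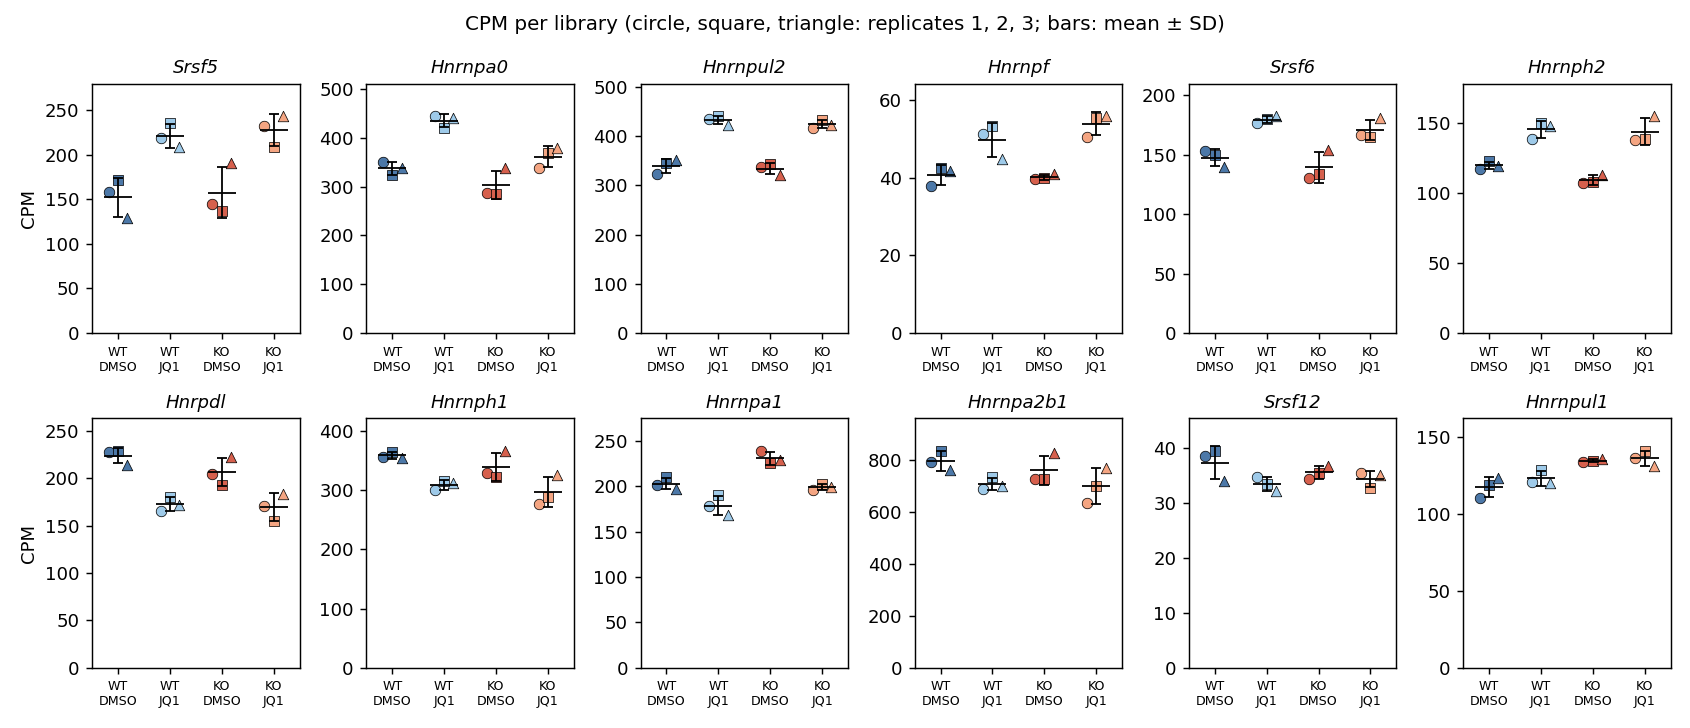
CPM in each of the 12 libraries for the 5 called genes with the largest rise and the 5 with the largest fall in JQ1 in WT, and for Hnrnph2 and Hnrnpul1; symbols are replicates 1 to 3, bars are mean ± SD, and each axis starts at 0. For Srsf5, Srsf6, Hnrnpul2, Hnrnpf and Hnrnph2 the JQ1 libraries of both genotypes lie above their DMSO libraries, and for Hnrpdl and Hnrnpa1 below; with spike-in scaling the rises in WT become negative.

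In the hnRNP U family Hnrnpul2 and Hnrnpu rose, though not in WT with spike-in scaling, and Hnrnpul1 did not pass. Hnrnpul2 was at 323, 345 and 351 CPM in WT in DMSO and at 435, 441 and 423 CPM in JQ1. In KO it was at 338, 343 and 322 CPM against 418, 433 and 423 CPM. The groups did not overlap, and the adjusted p-values by edgeR were the smallest of the 33 genes: 1.81e-05 in WT (log2 change 0.35, SE 0.05) and 1.9e-05 in KO (0.34). Hnrnpu, a scaffold attachment protein that binds chromatin-associated RNA, had a log2 change of 0.21 in both genotypes. Hnrnpul1 was at 0.07 and 0.02.

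Of the other hnRNP genes, again except in WT with spike-in scaling, Hnrnpl rose (0.24 in WT and 0.18 in KO), as did Hnrnpc, which binds runs of U (0.18 and 0.21), and Hnrnpm (0.14 in both). The Hnrnpm call in KO was lost in 5 of 13 alternatives. Of the exon bases of Hnrnpm, 14.7% are also annotated to another gene on the same strand, which makes its value uncertain. Hnrnpk and Hnrnpr passed in KO (0.14 and 0.16) and not in WT (0.08 and 0.11). The Hnrnpk call was kept in 7 of 13 alternatives. The Hnrnpr call was lost in 3 of 13, among them the fit without both KO libraries numbered 3 (0.10, adjusted p = 0.1 by edgeR). Hnrpll, the relative of Hnrnpl, was at -0.05 and -0.02 and passed in neither. A call in 1 genotype alone is no difference between genotypes: in the test of the difference of responses, 0 of 33 genes and 0% of all genes passed with edgeR, and DESeq2 also called 0. At an unadjusted p under 0.05 there were 0 members and 355 of 15433 genes. With scaling to the bulk of genes, the largest difference among the members was 0.13, for Hnrnpf (SE 0.09). Spike-in scaling moved the median difference to 0.74 for the members and 0.70 for all genes, with 0 genes called.

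Ratios of 2 related genes within a library do not depend on how libraries are scaled. The pairs were picked after the values had been seen, so the ratios are a description with no test, and they compare libraries, not the levels of the 2 genes. The ratio of Hnrnph2 to Hnrnph1 counts was 0.329, 0.336 and 0.337 in WT in DMSO and 0.325, 0.334 and 0.309 in KO in DMSO. In JQ1 it was 0.462, 0.476 and 0.476 in WT and 0.5, 0.481 and 0.477 in KO. All 6 JQ1 libraries lay above all 6 DMSO libraries. The ratio of Hnrnpf to Hnrnph1 was 0.106 to 0.124 in DMSO and 0.144 to 0.193 in JQ1. The ratio of Hnrnpd to Hnrpdl was 0.917 to 1.06 in DMSO and 1.09 to 1.32 in JQ1, and that of Srsf5 to Srsf3 0.589 to 0.901 against 0.974 to 1.29. The ratio of Hnrnpul2 to Hnrnpul1 was 2.37 to 2.93 against 3.07 to 3.61. None of these 5 ranges overlapped between treatments over both genotypes. The ranges of the other 5 pairs did with both genotypes pooled. These were Hnrnpa0 to Hnrnpa1 and Hnrnpl to Hnrpll (1.86 to 2.45 against 2.31 to 2.83). Also among them were Srsf6 to Srsf5 (0.808 to 1.09 against 0.719 to 0.873) and Srsf4 to Srsf5 (0.095 to 0.142 against 0.0836 to 0.104). The last was Tra2b to Tra2a (1.97 to 2.24 against 2.17 to 2.42). Within each genotype, Hnrnpa0 to Hnrnpa1, Hnrnpl to Hnrpll and Srsf6 to Srsf5 did not overlap between treatments. Hnrnpl to Hnrpll was at 1.86 to 2.03 against 2.31 to 2.48 in WT. In KO it was at 2.36 to 2.45 against 2.63 to 2.83. Srsf4 to Srsf5 overlapped in KO only, and Tra2b to Tra2a in both genotypes.

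**Figure D3:**
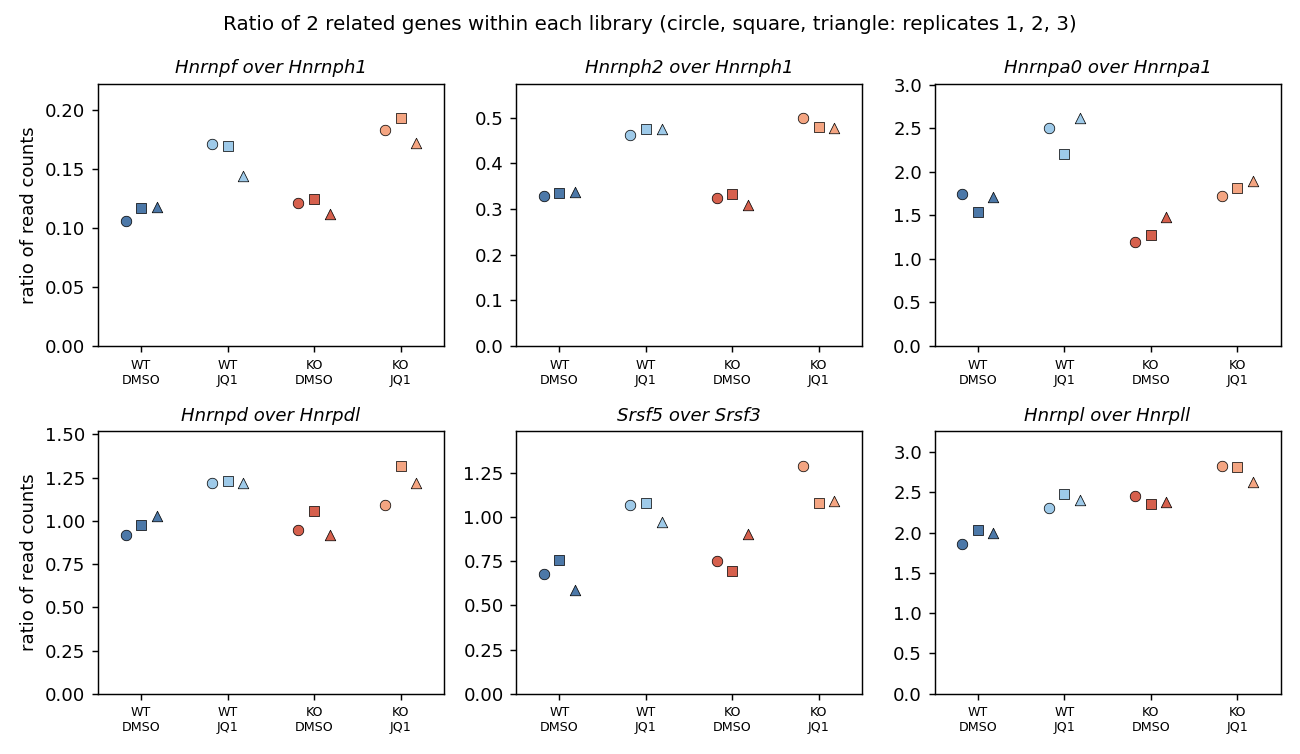
Ratio of the read counts of 2 related genes in each of the 12 libraries, for 6 pairs; symbols are replicates 1 to 3 and each axis starts at 0. The ratio of Hnrnph2 to Hnrnph1 lies between 0.309 and 0.337 in DMSO and between 0.462 and 0.5 in JQ1. The ratios of Hnrnpa0 to Hnrnpa1 and of Hnrnpl to Hnrpll differ between genotypes as well.

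Other genes of the splicing machinery were counted from 5 lists. Beside them, 25.9% of all genes tested were higher and 29.3% lower in JQ1 in WT, and 27.7% and 29.4% in KO. Of 26 SR-related and exon junction proteins, which extend the SR network and mark spliced junctions, 17 were higher and 1 lower in JQ1 in WT, and 19 and 1 in KO. Bclaf1 went from 215 ± 10.9 to 315 ± 19.2 CPM (mean ± SD, n = 3 each), Thrap3 from 87.6 ± 2.40 to 121 ± 3.49 CPM, and Srek1 from 41.6 ± 1.43 to 58.8 ± 1.57 CPM in WT. Of 15 SR protein kinases and phosphatase genes, 8 were higher and 0 lower in each genotype. Srpk2, a kinase of SR proteins in the cytoplasm, went from 180 ± 2.88 to 262 ± 6.14 CPM, a log2 change of 0.54, and the nuclear kinase Clk2 had 0.51 and Dyrk1a 0.30. Of 13 genes of nuclear import and surveillance, 9 were higher and 0 lower in WT, and 7 and 0 in KO. Tnpo2, an import receptor of the transportin family, had a log2 change of 0.48, and the decay factors Upf3a and Upf1 had 0.60 and 0.42.

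Of 36 core spliceosome genes, 17 were higher and 2 lower in WT, and 16 and 2 in KO, with Cdc5l at 0.56, Sf3b1 at 0.35 and U2af2 at 0.28. The neuronal and tissue-specific regulators, of which 46 of 50 were tested, split more evenly: 12 were higher and 9 lower in WT, and 16 and 6 in KO. Rbfox1, a neuronal regulator, fell by 0.56 on the log2 scale and the neuronal RNA-binding protein Elavl4 by 0.58, while Raly, a close relative of Hnrnpc, rose by 0.69. The median log2 changes in WT were 0.19 for the SR-related list, 0.23 for the kinases and phosphatase, 0.18 for import and surveillance, 0.09 for the core genes and 0.09 for the tissue-specific regulators, against -0.0043 for all genes. Under spike-in scaling the median of all genes itself is -0.63. Among cell type markers, 5 of 9 astrocyte markers, 4 of 7 tested microglial markers, 3 of 8 oligodendrocyte lineage markers and 4 of 8 fibroblast and mural markers were lower in JQ1 in WT. Of all genes tested, 25.9% were higher and 29.3% lower there. In WT in JQ1, 7 of 9 microglial and 7 of 8 fibroblast and mural markers had a group mean under 1 CPM, near the floor. Neuronal markers split 3 higher and 4 lower, 2 of 9 dividing progenitor markers were higher, and 1 of 2 tested endothelial markers was lower. Their part in the changes of the splicing factors was not tested.

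**Figure D4:**
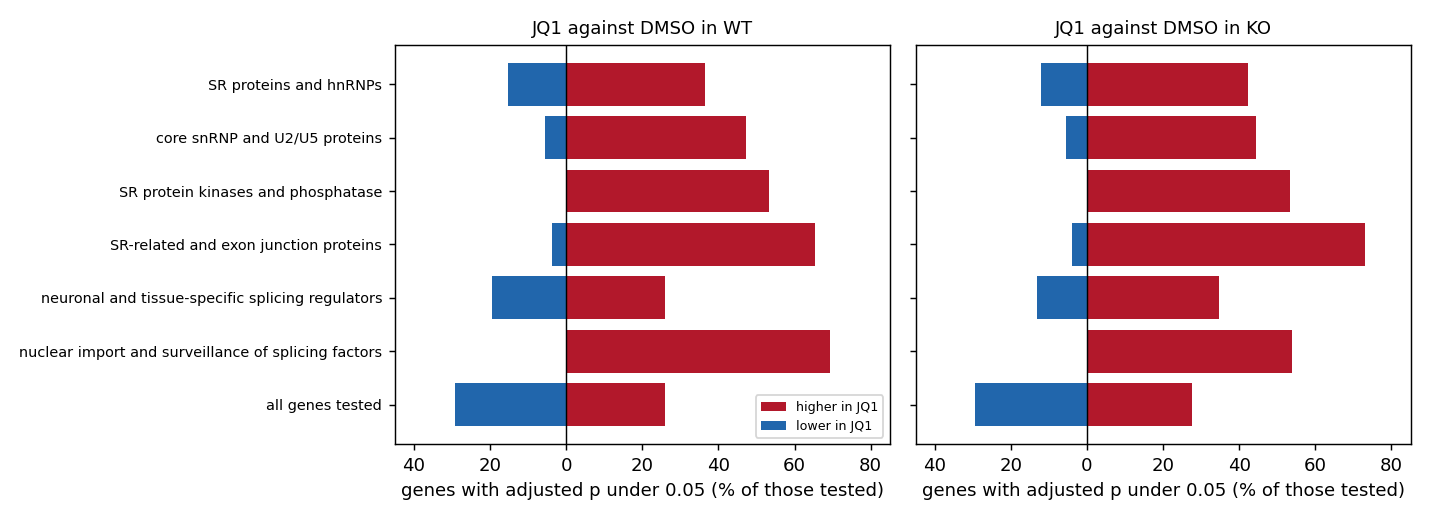
Share of genes called higher (red, to the right) or lower (blue, to the left) in JQ1, as a percent of those tested, for the 33 SR protein and hnRNP genes, 5 lists of other splicing genes and all 15433 genes, in WT and KO. The 33 genes are at 36.4% higher and 15.2% lower in WT against 25.9% and 29.3% of all genes. With spike-in scaling 0 of the 33 and 40 of all 15433 genes are called higher in WT.

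In vehicle, KO and WT neurons were compared to see which splicing factors differ without FMRP. With all libraries, 2 of 33 (6.06%) were higher and 0 lower, against 7.21% higher and 7.76% lower among all genes. Below the threshold, 28 of the 33 had a negative log2 change, and the median was -0.08 against -0.01 for all genes. With spike-in scaling, which moved the median of all genes by -0.82, 31 of 33 genes were called lower, along with 11990 of 15433 genes, and the 2 risers had negative values.

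Hnrnpul1, a partner of DNA repair and RNA processing complexes, was at 110, 118 and 123 CPM in WT and at 133, 134 and 136 CPM in KO. Hnrnpa1 was at 201, 210 and 197 CPM in WT and at 239, 225 and 229 CPM in KO. Neither gene overlapped between genotypes, and KO replicate 3 lay with the other KO libraries in both. The log2 changes were 0.20 for Hnrnpul1 (SE 0.05, adjusted p = 0.0183 by edgeR) and 0.19 for Hnrnpa1 (SE 0.05, adjusted p = 0.0234 by edgeR). Both calls depended on single libraries: the Hnrnpul1 call was lost without WT replicate 1 or 2 (adjusted p of up to 0.0792 by edgeR) and the Hnrnpa1 call without WT replicate 1 or 3 or KO replicate 1 (up to 0.0817 by edgeR). Hnrnpl came next, at 0.15 with adjusted p = 0.0512 by edgeR.

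In JQ1, 0 of the 33 genes were higher in KO than in WT and 1 (3.03%) was lower, against 4.85% and 4.13% of all genes. The gene was Hnrnpa0, at 444, 420 and 441 CPM in WT and 337, 368 and 378 CPM in KO. The groups did not overlap, and the log2 change was -0.27 (SE 0.07, adjusted p = 0.0222 by edgeR). Spike-in scaling gave -0.37 without a call. The call was also lost without WT replicate 1 or 3 or KO replicate 1 (adjusted p of up to 0.0924 by edgeR). Hnrnpul1 (0.15, adjusted p = 0.0776 by edgeR) and Hnrnpa1 (0.15, adjusted p = 0.0637 by edgeR) did not pass here, and their libraries again did not overlap. DESeq2 called both higher (adjusted p = 0.0464 for Hnrnpul1 and 0.0301 for Hnrnpa1), the edgeR fit without both KO libraries numbered 3 called Hnrnpul1 (0.17, adjusted p = 0.0448), and the replicate block called Hnrnpa1 (adjusted p = 0.0483 by edgeR). The ratio of Hnrnpa0 to Hnrnpa1 counts, free of scaling, was 1.54 to 1.74 in WT in DMSO, 1.2 to 1.48 in KO in DMSO, 2.21 to 2.62 in WT in JQ1 and 1.72 to 1.9 in KO in JQ1. It was thus lower in KO than in WT under each treatment with no overlap. The ratio of Hnrnpul2 to Hnrnpul1 was lower in KO too, and that of Hnrnpl to Hnrpll higher, under each treatment without overlap.

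KO replicate 3 differed from the other KO libraries over much of the family. In DMSO it was the highest of the 3 KO libraries for 26 of 33 genes (78.8%), against 38.3% of all genes, and in JQ1 again for 26 of 33, against 34.6%. KO replicates 1 and 2 lay below every WT library for 23 of 33 genes (69.7%) in DMSO, against 28.7% of all genes, and for 17 of 33 (51.5%) in JQ1, against 22.6%. Of the 23 genes in DMSO, KO replicate 3 lay below the WT range for 10 and within it for 9. The median log2 distance from the WT mean in DMSO was -0.125 for KO replicate 1, -0.13 for replicate 2 and -0.0194 for replicate 3. In JQ1 these were -0.153, -0.0719 and 0.0718.

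Fitted without both libraries numbered 3 of KO, 12 of 33 genes were lower in KO in DMSO and 2 higher, against 10.8% lower and 9.42% higher among all 15625 genes then tested. The SR and Tra2 genes made up 7 of the 12 (53.8% of the 13 in that class): Srsf1, Srsf2, Srsf3, Srsf6, Srsf7, Srsf10 and Srsf11. The 5 hnRNP genes were Hnrnpa0, Hnrnph1, Hnrnph2, Hnrnpu and Hnrpll, 25% of 20. The value of Srsf2 is uncertain, as 25.3% of its exon bases are also annotated to genes on the opposite strand. In JQ1, 7 were lower and 1, Hnrnpul1, was higher, against 7.96% and 7.84% of all genes. These 7, Srsf1, Srsf3, Srsf7, Srsf10, Hnrnpa0, Hnrnph1 and Hnrnpu, were lower in both treatments. Both comparisons rest on KO libraries numbered 1 and 2. Same-numbered KO libraries deviated together between treatments, so the 2 treatments may not be independent. The share of all genes lower in both treatments was not computed. Leaving out KO replicate 3 of 1 treatment alone gave 1 lower in DMSO and 5 lower in JQ1. Among all genes, 1015 of 15316 and 1001 of 15946 were then lower. In DMSO the fits with 12 and with 1 lower compare the same DMSO libraries. They differ in whether KO replicate 3 in JQ1 enters the filter, scaling and shared estimate of spread, so that count depended on a JQ1 library. Hnrnpa1 and Hnrnpul1 kept log2 changes of 0.19 and 0.19 in DMSO without both KO libraries numbered 3.

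Srsf10 and Srsf1, in both of which KO replicate 3 was the highest KO library, were picked after their values had been seen. Srsf10 was at 106, 99.7 and 98.0 CPM in WT in DMSO and at 83.0, 84.2 and 100.3 CPM in KO in DMSO. In JQ1 it was at 110, 114 and 115 CPM in WT and at 88.6, 98.0 and 117 CPM in KO. KO replicate 3 lay within the WT range in DMSO and just above it in JQ1, and the other KO libraries lay below it. Srsf1 was at 256, 247 and 236 CPM in WT and at 201, 207 and 234 CPM in KO in DMSO. KO replicate 3 there lay just below the WT range. In JQ1 Srsf1 was at 249, 266 and 243 CPM in WT and at 196, 221 and 253 CPM in KO. KO replicate 3 lay within the WT range in JQ1. Without both KO libraries numbered 3, the log2 change in DMSO was -0.28 for Srsf10 and -0.27 for Srsf1; with them it was -0.18 and -0.20, and neither passed.

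**Figure D5:**
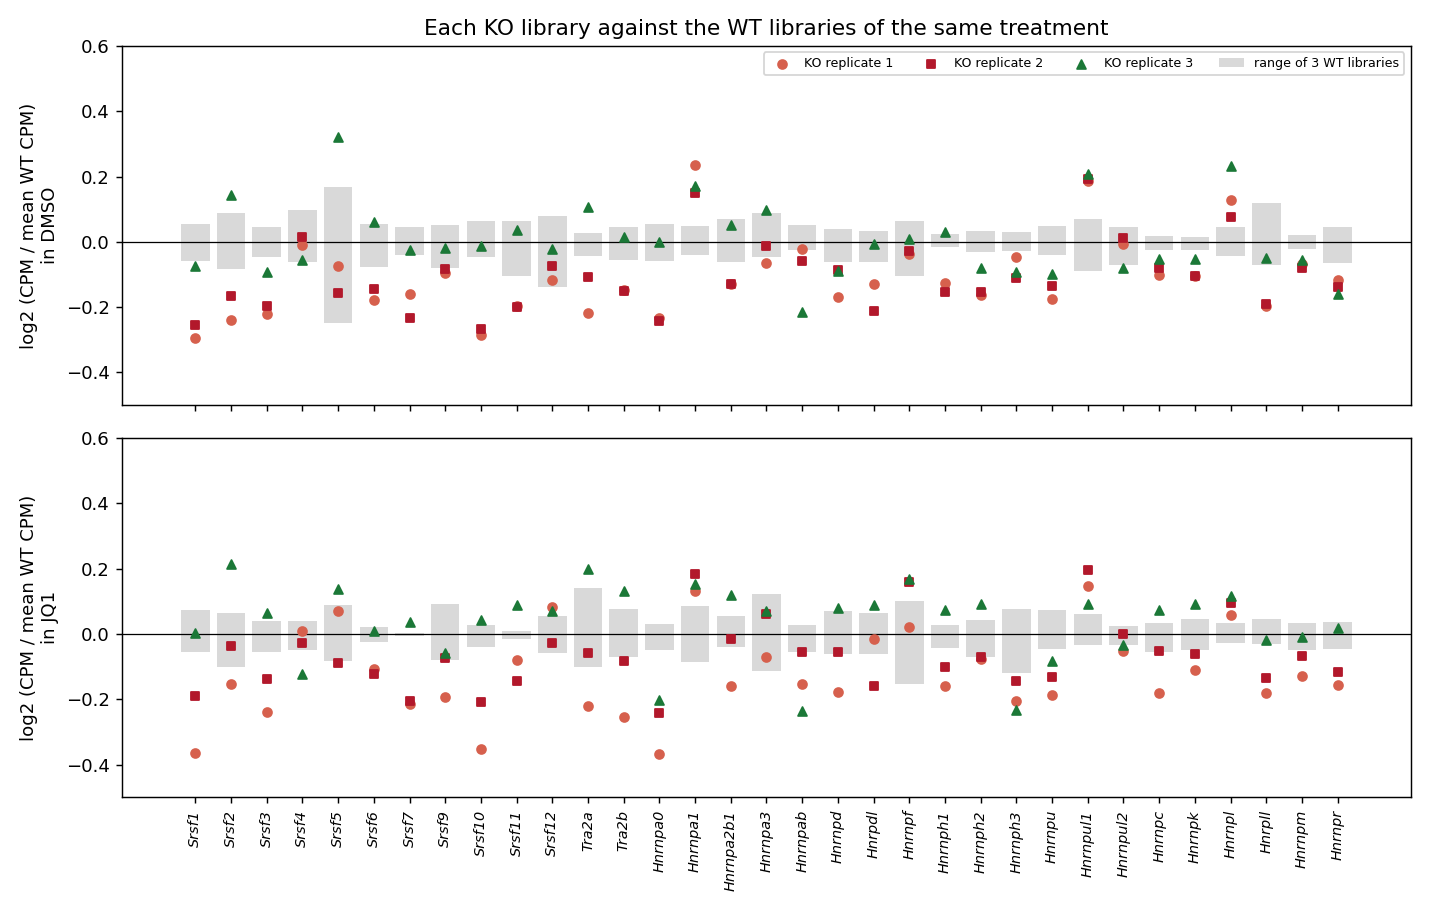
Log2 ratio of the CPM in each KO library to the mean of the 3 WT libraries of the same treatment, for the 33 genes in DMSO (top) and JQ1 (bottom); grey bars span the WT libraries. KO replicate 3 (green triangles) is the highest KO library for 26 of 33 genes in each treatment. Hnrnpa1, Hnrnpul1 and Hnrnpl lie above the WT range in all KO libraries in DMSO. With spike-in scaling 31 of 33 genes, and 11990 of all 15433 genes, are called lower in KO in DMSO.

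Markers of dividing progenitors also differed between these libraries. They summed to 224, 232 and 250 CPM in WT in DMSO and to 177, 186 and 213 CPM in KO in DMSO, where 4 of 9 were called lower in KO and 0 higher, and 7 lower and 1 higher without both KO libraries numbered 3. In JQ1 the sums were 275, 318 and 252 CPM in WT and 171, 234 and 228 CPM in KO, and 3 of 9 were lower, or 5 without these libraries. Neuronal markers were higher in KO in DMSO for 4 of 10, or 2 of 10 without them. The astrocyte sum was 492, 607 and 665 CPM in KO in DMSO, and 2 of 9 astrocyte markers were lower in KO with these libraries and without them. KO replicate 3 had the highest progenitor and astrocyte sums of the KO libraries in DMSO. In JQ1 KO replicate 2 had the highest of both, with astrocyte sums of 326, 523 and 497 CPM in KO replicates 1 to 3. The part of these cells in the genotype values was not tested.

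The other splicing lists were compared between the genotypes in the same way, with 7.21% of all genes higher and 7.76% lower in DMSO as the background. Without both KO libraries numbered 3 this background was 9.42% higher and 10.8% lower. Of 26 SR-related and exon junction genes 2 were higher and 6 lower in KO, among them Bclaf1 (-0.23) and Srek1 (-0.17), and 5 and 8 without both KO libraries numbered 3. The core spliceosome genes split 3 and 3 of 36, with Sf3a2 at 0.23, Sf1 at 0.23 and Sf3b1 at -0.16, and 4 and 4 without these libraries. Of 46 tissue-specific regulators 4 were higher and 4 lower, led by Nova2 (0.33), Pcbp3 (0.34) and Celf3 (0.29), and 4 and 8 of 47 without the libraries. The kinase and phosphatase list had 2 higher and 0 lower of 15, Ppp1ca (0.20) and Ppp1r10 (0.15), and 3 and 2 without them. The import and surveillance list had 0 higher and 2 lower of 13, Upf3b (-0.31) and Upf2 (-0.24), with and without them. In JQ1 these lists had, in the same order, 2, 0, 2, 1 and 0 genes higher and 0, 0, 1, 0 and 2 lower. Of all genes, 4.85% were higher and 4.13% lower there. Without the libraries the lists had 2, 3, 5, 3 and 0 higher and 2, 2, 5, 1 and 2 lower. The shares of all genes were then 7.84% and 7.96%.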

How the data were processed

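The authors deposited raw read counts per Ensembl gene for 12 libraries; the tools named, per the submitters' processing notes, are TopHat2 2.1.0, SAMtools 0.1.19, HTSeq 0.6.1, DESeq and DESeq2, with mm9 as the genome. The library kit was TruSeq RNA, per the labels' protocols. Neither strandedness nor the counting mode is stated in the labels, so reads of overlapping genes could be shared or lost: 14 of the 33 genes share exon bases with another gene, 5 of them over 10% (GENCODE M21, matched by identifier). The authors' deposited comparison table was not used.

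The tests were run with edgeR 4.0.16 in R 4.3.3: filterByExpr at a minimum count of 10, TMM scaling, 1 mean per group, quasi-likelihood F tests (8 residual degrees of freedom), two-sided, with Benjamini-Hochberg adjustment over 15433 genes. CPM values use TMM-scaled library sizes and leave out 92 ERCC spike-in sequences. DESeq2 1.42.0 was an alternative, as were spike-in scaling, no filter, fits of the compared groups alone and leaving out libraries; the lists without the KO libraries numbered 3 were added after the data had been seen. The fit was tested on simulated data. Members and lists were chosen with earlier results of these data known. Values in every library were given for the 5 called genes of largest rise and of largest fall in JQ1 in WT and for genes called between genotypes, and after values were seen also for Hnrnph2, Srsf1 and Srsf10; of each other list, up to 3 called genes of smallest adjusted p were named.

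Within each group, replicates differed beyond Poisson noise, with a chi-square of 4.77 to 40.9 per degree of freedom. Same-numbered libraries deviated together in JQ1 against DMSO in KO (correlations 0.21 to 0.29, all over 0.1), which points to pairing there from the data and not from the labels. In WT they were 0.094 to 0.16, and between genotypes -0.18 to 0.011 in DMSO and -0.016 to 0.12 in JQ1.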

Additional observations from a re-analysis of the deposited data

How the results depend on the processing

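Spike-in scaling moved most. In JQ1 against DMSO in WT it left 0 members higher and 7 lower, with negative log2 values for Srsf4 (-0.39), Srsf5 (-0.11), Srsf6 (-0.36), Srsf9 (-0.47), Hnrnpa0 (-0.27), Hnrnpf (-0.32), Hnrnph2 (-0.36), Hnrnpu (-0.42), Hnrnpul2 (-0.28), Hnrnpc (-0.46), Hnrnpl (-0.40) and Hnrnpm (-0.50). In KO it left 0 higher and 0 lower. Of all genes it called 40 higher and 5814 lower in WT, and 206 and 1314 in KO. Between genotypes it gave 0 higher and 31 lower in DMSO (Hnrnpa1 -0.64, Hnrnpul1 -0.60) and 0 lower in JQ1. Of all genes, 11990 were lower in DMSO and 18 in JQ1 under this scaling. The members' median minus that of all genes was then 0.11, 0.13, -0.07 and -0.03, against 0.11, 0.13, -0.07 and -0.04 with TMM. How much spike-in was added is not stated in the labels, and the cause was not tested.

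With DESeq2 size factors, and with DESeq2's Wald test, 3 members were lower in JQ1 in WT, against 4424 and 4327 of all genes. The Wald test gave 2 higher in KO against WT in JQ1, against 1059 of all genes. Without the KO libraries numbered 3, KO against WT had 12 lower in DMSO, and 1 higher and 7 lower in JQ1. With the replicate block, 1 member, Hnrnpa1, was higher in KO against WT in JQ1 (adjusted p = 0.0483 by edgeR), where the labels give only shared numbers, and no other member changed its call. A block within genotype, added after the data had been seen, gave 17 higher and 5 lower in WT and 18 and 5 in KO. Of all genes, 4446 were then higher and 4846 lower in WT, and 4787 and 4903 in KO.

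Leaving out each library in turn gave 11 to 12 higher and 2 to 4 lower in JQ1 in WT, 11 to 17 higher and 3 to 5 lower in KO, 0 to 3 higher and 0 to 1 lower in KO against WT in DMSO, and 0 to 1 higher and 0 to 5 lower in JQ1. Fewer libraries enter these fits. Changes under about 0.1 on the log2 scale are near the typical standard error of 0.062 and limited by the spread between libraries rather than by depth.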
